A study of Rattus norvegicus with 16 samples.

Results

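The genes described here encode the protein families for which the secretion of the epididymal duct is best known, read in epididymal fat. They were all genes whose rat symbol begins with Defb (beta-defensins), Wfdc (protease inhibitors with a whey acidic protein core), Spink (Kazal-type protease inhibitors) or Crisp (cysteine-rich secretory proteins), the lipocalins named Lcn followed by a digit, and the single genes Ces5a, Adam7 and Adam28. The array measured 70 of them with 77 probes, out of 15162 genes named on the array. The rat gene table of RefSeq holds 94 genes under the same names, and the other 24, Adam28 among them, had no probe named through it. By family there were 37 Defb, 11 Wfdc, 8 Lcn, 7 Spink and 5 Crisp genes (Crispld1 and Crispld2 included by the start of their symbol), with Ces5a and Adam7.

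The fat pads came from male rats aged 30 days, killed while feeding freely. HFT animals were sons of dams kept on a high-fat diet while pregnant and nursing and dosed daily with GSPE, a procyanidin extract of grape seeds, at 25 mg per kg in low-fat condensed milk. HF animals were sons of dams on the same diet that received the milk alone. All the pups stayed on the high-fat diet of their mothers after weaning, so neither group was free of it. Each group held 8 animals with 1 Agilent 1-colour array each, 16 arrays in all, named here by group and animal number. Which animals shared a dam is not given in the labels, so the p-values measure the spread between these animals as if each came from its own litter.

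The epididymis is the coiled duct in which sperm leaving the testis mature and are stored, and in males the epididymal fat pad is attached along it. Its epithelium works in segments: each stretch of the duct secretes its own set of proteins, under androgen and under factors that arrive in the luminal fluid from the testis. Beta-defensins are small cationic antimicrobial peptides, several of which coat sperm. Wfdc and Spink proteins inhibit proteases, Crisp proteins bind to sperm, and lipocalins carry small hydrophobic molecules such as retinoids. Lcn2, a lipocalin that scavenges iron, is also a product of fat and of inflamed tissues.

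A level below is the log2 signal of a gene's probe relative to the 75th percentile of its own array, so 0 is the brightness of the spot at that percentile. A probe counted as well above background on an array by the scanner software's own mark. A gene was called high on an array where it was well above background there and at least 2 log2 units over its median of the 16 arrays, and it was placed by the array of its highest value. Each array is 1 animal, and apart from the means of all 8 animals a group in the HFT against HF fit no arrays are averaged. That percentile lay between 753 and 1366 over the arrays, 0 spots were saturated, and an array had 68.2% to 73.5% of its probes well above background. The number of arrays limits the precision.

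Most of the members that varied were bright in 4 animals. Of the 70 genes, 19 were high with their peak on HFT_D28, HFT_D23 or HF_D8, which is 27.1% of them beside 4.88% of all named genes. A further 11 peaked on HF_D9, 15.7% of the members beside 1.56% of all named genes. The single gene that peaked on another array was Spink1l (1.43% beside 2.82%). Another 19 were measured without being high on any array, and 20 were not well above background anywhere (28.6% beside 15.6% of all named genes). Levels well above background on all 16 arrays were found for 26 members, 37.1% of them beside 69.9% of all named genes. The families and the 4 arrays were picked with these levels already known, so the counts describe the arrays and test nothing. They also depend on the processing: with normexp background correction they were 7 and 6 in place of 19 and 11, and 12 and 7 were counted with the log2 table that the authors deposited.

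Counted by array, 22 members were high on HFT_D28, 31.4% of the members beside 4.61% of all named genes. There were 19 on HFT_D23 (27.1% beside 3.53%) and 5 on HFT_D24 (7.14% beside 2.28%). Against these stood 23 on HF_D8 (32.9% beside 4.32%) and 15 on HF_D9 (21.4% beside 2.43%). HFT_D27 had 4 high members (5.71% beside 0.376%), HFT_D36 had 3 (4.29% beside 0.871%) and HF_D14 had 2 (2.86% beside 0.171%). HF_D10 and HF_D11 had 1 each (1.43% beside 1.11% and 0.158%). The other 6 arrays had 0, beside 0.0264% to 1.63% of all named genes. Both groups thus held animals with many high members, and the array with the most was an HF animal.

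**Figure D1:**
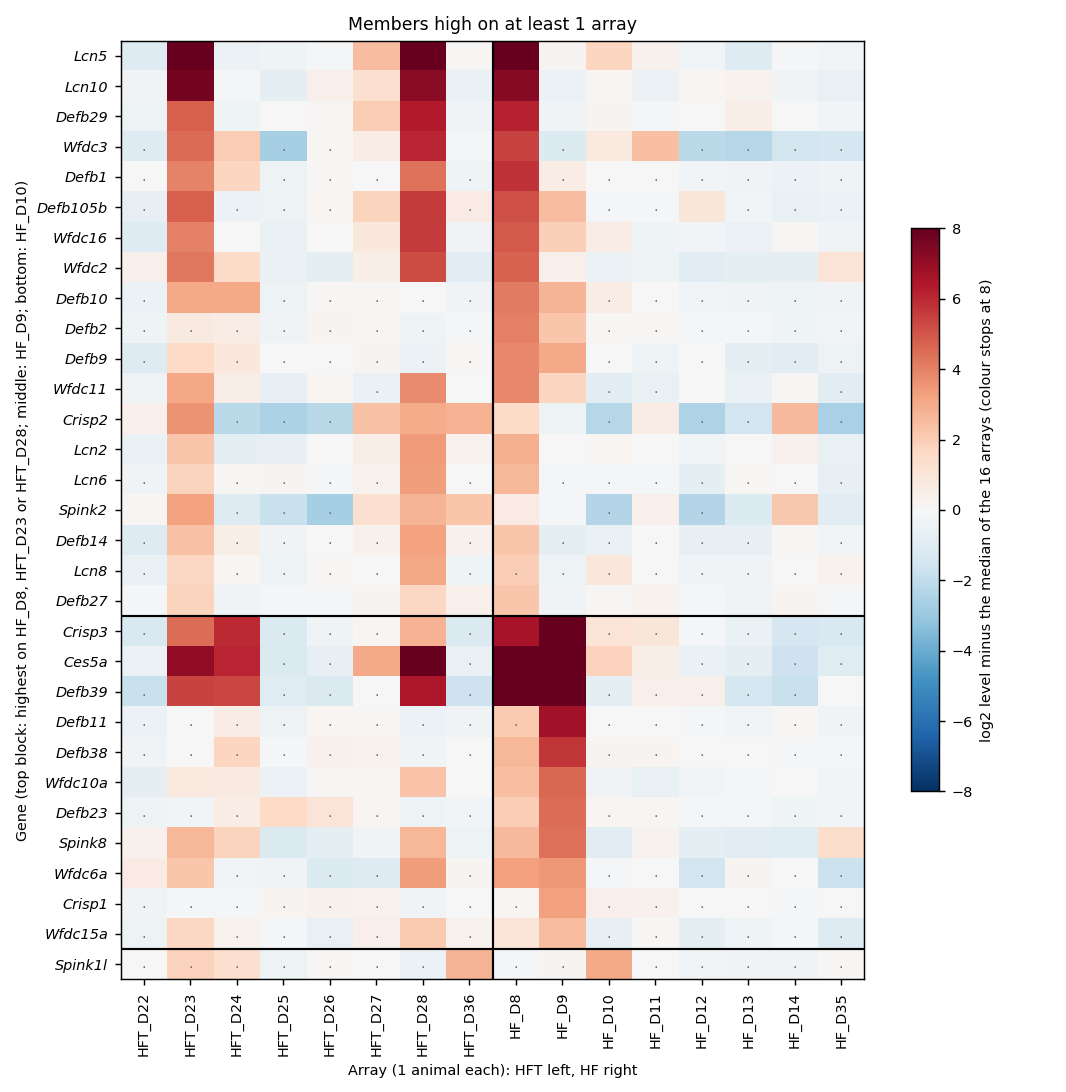
Heat map of the 31 members that were high on at least 1 array (rows) over the 16 arrays (columns, HFT left of the black line and HF right of it). Colour gives the log2 level minus the gene's own median of the 16 arrays, with the scale stopped at 8, and a dot marks a probe not well above background. The 19 genes of the top block are brightest on HFT_D28, HFT_D23 or HF_D8, the 11 genes of the middle block peak on HF_D9, and Spink1l at the bottom peaks on HF_D10.

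The promoters of 4 genes that carry the contrast are shown, Lcn5 and Lcn10 for the genes bright on HFT_D28, HFT_D23 and HF_D8, and Ces5a and Crisp3 for those that peaked on HF_D9. Each is 300 bases from RefSeq (build GRCr8, plus strand, 250 bases before the gene's start and 50 after it), at chr3:28871073-28871372 for Lcn5, chr3:28888651-28888950 for Lcn10, chr19:11475068-11475367 for Ces5a and chr9:27928341-27928640 for Crisp3. Capitals mark 2 motifs, searched on both strands, and no match overlapped another in these windows. The TATA box was searched as TATAAA, and the CCAAT box by its name's own letters or, when read from the opposite strand, as ATTGG.
Lcn5: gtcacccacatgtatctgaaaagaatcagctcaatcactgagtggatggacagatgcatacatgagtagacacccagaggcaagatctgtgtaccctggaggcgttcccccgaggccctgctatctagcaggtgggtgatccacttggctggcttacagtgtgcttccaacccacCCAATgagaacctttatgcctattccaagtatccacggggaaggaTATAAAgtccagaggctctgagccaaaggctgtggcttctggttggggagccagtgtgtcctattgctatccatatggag
Lcn10: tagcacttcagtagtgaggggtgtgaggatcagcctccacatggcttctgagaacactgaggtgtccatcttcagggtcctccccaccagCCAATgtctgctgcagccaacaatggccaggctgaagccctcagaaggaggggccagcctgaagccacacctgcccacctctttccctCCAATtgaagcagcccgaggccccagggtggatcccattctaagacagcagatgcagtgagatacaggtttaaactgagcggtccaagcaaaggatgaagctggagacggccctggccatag
Ces5a: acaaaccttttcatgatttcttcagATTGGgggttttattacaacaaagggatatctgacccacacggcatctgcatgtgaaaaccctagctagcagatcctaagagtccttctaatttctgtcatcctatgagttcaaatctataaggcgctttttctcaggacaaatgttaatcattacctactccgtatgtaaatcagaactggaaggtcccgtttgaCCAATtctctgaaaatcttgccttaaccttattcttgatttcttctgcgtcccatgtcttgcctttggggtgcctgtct
Crisp3: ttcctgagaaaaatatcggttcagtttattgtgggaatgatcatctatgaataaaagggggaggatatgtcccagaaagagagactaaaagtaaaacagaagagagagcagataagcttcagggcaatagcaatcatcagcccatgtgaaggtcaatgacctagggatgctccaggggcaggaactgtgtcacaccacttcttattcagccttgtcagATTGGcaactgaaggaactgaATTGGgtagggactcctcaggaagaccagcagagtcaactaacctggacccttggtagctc

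In these windows Lcn5 had a TATA box whose first base lies at -30 from the start and a CCAAT box at -75. Lcn10 had CCAAT boxes at -160 and -72. Ces5a had CCAAT boxes at -29 and -225, and Crisp3 at -32 and -11. Of the members on the array 48 had a promoter in the RefSeq table. TATA boxes (TATAAA or TTTATA) were in 13 of these, 27.1%, beside 14.2% of all 33469 promoters of that length, and CCAAT boxes in 20, 41.7%, beside 37.5%. Only 13 of the genes placed on HFT_D28, HFT_D23 or HF_D8 and 3 of those placed on HF_D9 had a promoter in the table, too few to compare. These are matches of letters in a window and say nothing of binding.

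Of the 19 genes placed on HFT_D28, HFT_D23 or HF_D8, the lipocalin genes Lcn5 and Lcn10 stood farthest above their own medians, by 9.32 and 7.66 log2 units. Lcn5, which encodes a retinoic acid-binding protein of the duct, read 4.12 on HFT_D28 and 3.42 on HFT_D23, against 4.12 on HF_D8. The other 6 HFT animals lay between -6.23 and -2.71, with HFT_D27 at the upper end, and the other 7 HF animals between -6.23 and -3.48. Lcn5 therefore differed by more than 6 log2 units between the bright arrays and every other one, and HF_D9 was among the low ones at -4.98. Over the groups its levels overlapped entirely: lowest, median and highest were -6.23, -5.21 and 4.12 in HFT, against -6.23, -5.13 and 4.12 in HF.

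Lcn10, an epididymal lipocalin of the same gene cluster, read 1.67 on HFT_D28 and 2.11 on HFT_D23, against 1.72 on HF_D8, and -6.30 to -4.29 on the other 13 arrays. Lcn6 and Lcn8, 2 further lipocalins of the same cluster, were measured on some of the same arrays, at low signal. Lcn6 read -3.96 on HFT_D28 and -5.52 on HFT_D23, against -4.68 on HF_D8, and was well above background on no other array. Lcn8 was well above background on HFT_D28 (-5.44) and HFT_D23 (-6.86) only. Lcn2, the lipocalin that fat also makes, was well above background on all 16 arrays, yet read 3.66 on HFT_D28 and 2.50 on HFT_D23, against 3.07 on HF_D8, and -0.47 to 0.77 elsewhere. Lcn12, a retinoid-binding lipocalin known from the mouse epididymis, varied by 0.89 log2 units over all 16 arrays. Lcn1 and Lcn9 did not stand well above background anywhere.

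Among the Wfdc genes, Wfdc2, a protease inhibitor of the epididymis and other epithelia also known as HE4, read 4.09 on HFT_D28 and 3.11 on HFT_D23, against 3.61 on HF_D8. Its highest value elsewhere was 0.38, on HFT_D24, and its lowest -1.97, on HF_D12. Its second probe also peaked on HFT_D28, at 2.82. Wfdc16 read 0.23 on HFT_D28 and -1.30 on HFT_D23, against -0.42 on HF_D8, with -3.46 on HF_D9 as the next highest. Wfdc3 read -0.43 on HFT_D28 and -1.99 on HFT_D23, against -1.13 on HF_D8, and was also high on HFT_D24 (-4.50) and HF_D11 (-4.15). Wfdc11 read -2.24 on HFT_D28 and -2.96 on HFT_D23, against -2.20 on HF_D8. For these genes HFT_D23 was the dimmest of the bright arrays in each case.

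Of 37 beta-defensin genes 8 were placed on the same arrays. Defb29 read 0.98 on HFT_D28 and -0.60 on HFT_D23, against 0.75 on HF_D8. The next animal was HFT_D27 at -3.35, and the others lay between -5.79 and -4.88, HF_D9 included. Defb1, a beta-defensin of many epithelia, read -4.25 on HFT_D28 and -4.61 on HFT_D23, against -2.80 on HF_D8, and its next highest level was -6.88 on HFT_D24. Defb105b read -2.84 on HFT_D28 and -3.65 on HFT_D23, against -3.26 on HF_D8, and it was high on HF_D9 too (-5.97). Defb14 was high on the same 3 arrays, with a peak of -4.62 on HFT_D28. Defb27 varied least of the placed genes, with a peak of -2.86 on HF_D8 and a median of -5.08.

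Defb9, Defb10 and Defb2, which lie next to each other in the genome, were high on both HF_D8 and HF_D9. Defb9 read -3.51 on HF_D8 and -4.36 on HF_D9, Defb10 -4.49 and -5.87, and Defb2 -4.67 and -6.47. On HFT_D28 none of them was well above background. HFT_D28 and HF_D8 thus gave the same rounded level of Lcn5 and yet differed in these defensins, which of these 2 arrays were well above background on HF_D8 only. Defb10 was also high on HFT_D23 (-5.61) and HFT_D24 (-5.62), and Defb9 was well above background on HFT_D23 (-5.76). Nor was the pattern confined to these genes. Defb38, which peaked on HF_D9, was like Defb2 well above background on HF_D8 and HF_D9 only. Defb23, which also peaked there, was well above background on HF_D8, HF_D9 and HFT_D25.

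**Figure D2:**
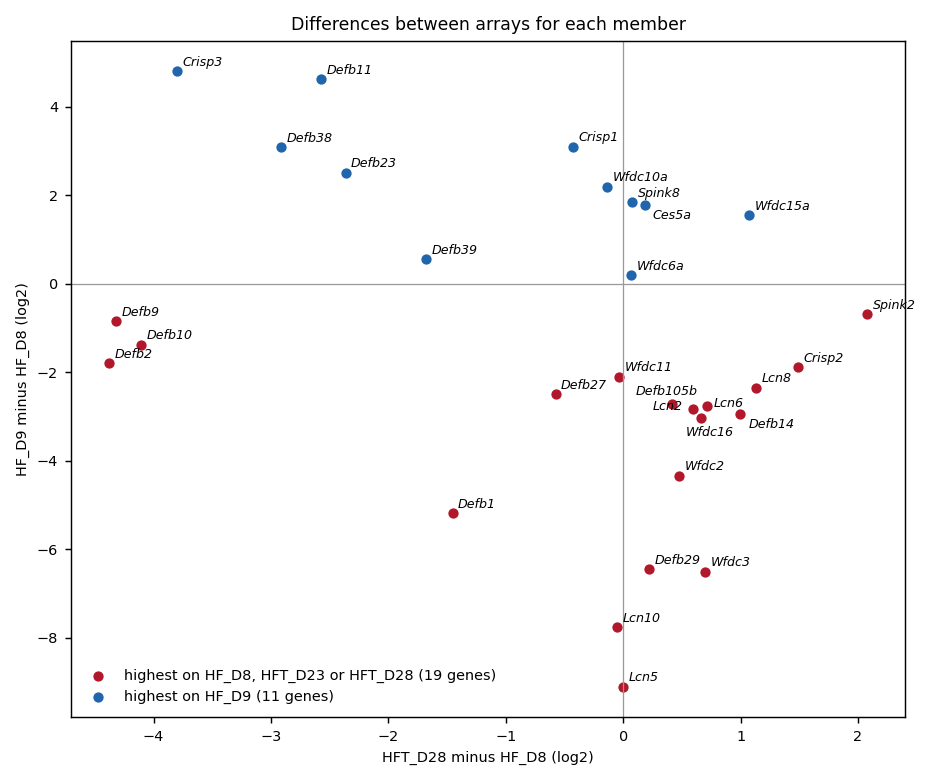
Each point is 1 of the 30 members placed on HFT_D28, HFT_D23 or HF_D8 (red, 19 genes) or on HF_D9 (blue, 11 genes). The horizontal axis is the HFT_D28 minus HF_D8 difference and the vertical axis the HF_D9 minus HF_D8 difference, both in log2 units. Lcn5 and Lcn10 lie at 0.0 and -0.05 on the horizontal axis and at -9.10 and -7.76 on the vertical one. A level not well above background enters at its measured signal, so such a difference has no exact size. On HFT_D28 this holds for Defb2, Defb9 and Defb10 at the left and for Crisp1, Defb11, Defb23 and Defb38. On HF_D9 it holds for Defb1, Defb14, Lcn6, Lcn8 and Wfdc3, and on HF_D8 for Lcn8, Crisp1 and Defb11.

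Of the 11 genes that peaked on HF_D9, 7 were well above background on HFT_D28 and 7 on HFT_D23, against 9 on HF_D8. Ces5a, a secreted carboxylesterase, read 3.68 on HF_D9, above 2.08 on HFT_D28, 0.61 on HFT_D23 and 1.89 on HF_D8. It was also high on HFT_D24 (-0.41) and HFT_D27 (-3.46), and the other 10 arrays lay between -8.17 and -4.64. Its lowest, median and highest levels were -7.68, -5.23 and 2.08 in HFT, against -8.17, -6.53 and 3.68 in HF, so the groups overlapped.

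Crisp3, a cysteine-rich secretory protein, had a wider lead on HF_D9. It read 3.65 there, above -4.94 on HFT_D28, -3.29 on HFT_D23 and -1.14 on HF_D8, and -1.75 on HFT_D24. It was not well above background on the other 11 arrays. Crisp1, which encodes a protein that coats sperm in the rat epididymis, was well above background on HF_D9 alone, at -5.48.

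Wfdc10a read 4.08 on HF_D9, above 1.76 on HFT_D28, 0.22 on HFT_D23 and 1.90 on HF_D8, with the other 12 arrays between -1.34 and 0.20. Its second probe also peaked on HF_D9, at 4.10. Spink8, a Kazal-type inhibitor known from the mouse epididymis, read 3.55 on HF_D9, above 1.78 on HFT_D28, 1.74 on HFT_D23 and 1.71 on HF_D8, and the next highest was 0.89 on HFT_D24. HF_D9 stood 1.76 log2 units above the second array for Spink8 and 2.19 for Wfdc10a. Wfdc15a read -5.32 on HF_D9, beside -5.80 on HFT_D28, -6.20 on HFT_D23 and -6.87 on HF_D8. Wfdc6a read -3.85 on HF_D9, beside -3.98 on HFT_D28, -5.07 on HFT_D23 and -4.05 on HF_D8, so its place was close to a tie.

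Defb39 read 1.65 on HF_D9, above -0.59 on HFT_D28, -1.63 on HFT_D23 and 1.09 on HF_D8, and it read -1.70 on HFT_D24. Defb38, Defb11 and Defb23 read -3.15, -1.84 and -4.26 on HF_D9, and the second array was HF_D8 for all of them, at -6.23, -6.46 and -6.76 (not well above background for Defb11). Defb11 was well above background on HF_D9 alone and Defb38 on HF_D9 and HF_D8 alone. All 11 genes of this set read higher on HF_D9 than on HF_D8 or HFT_D28, by a median of 2.19 and 2.32 log2 units, a direction that the placing itself fixes. HFT_D24 shared only part of the set: it was high for Ces5a, Crisp3 and Defb39, while Lcn5 there read -5.64.

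**Figure D3:**
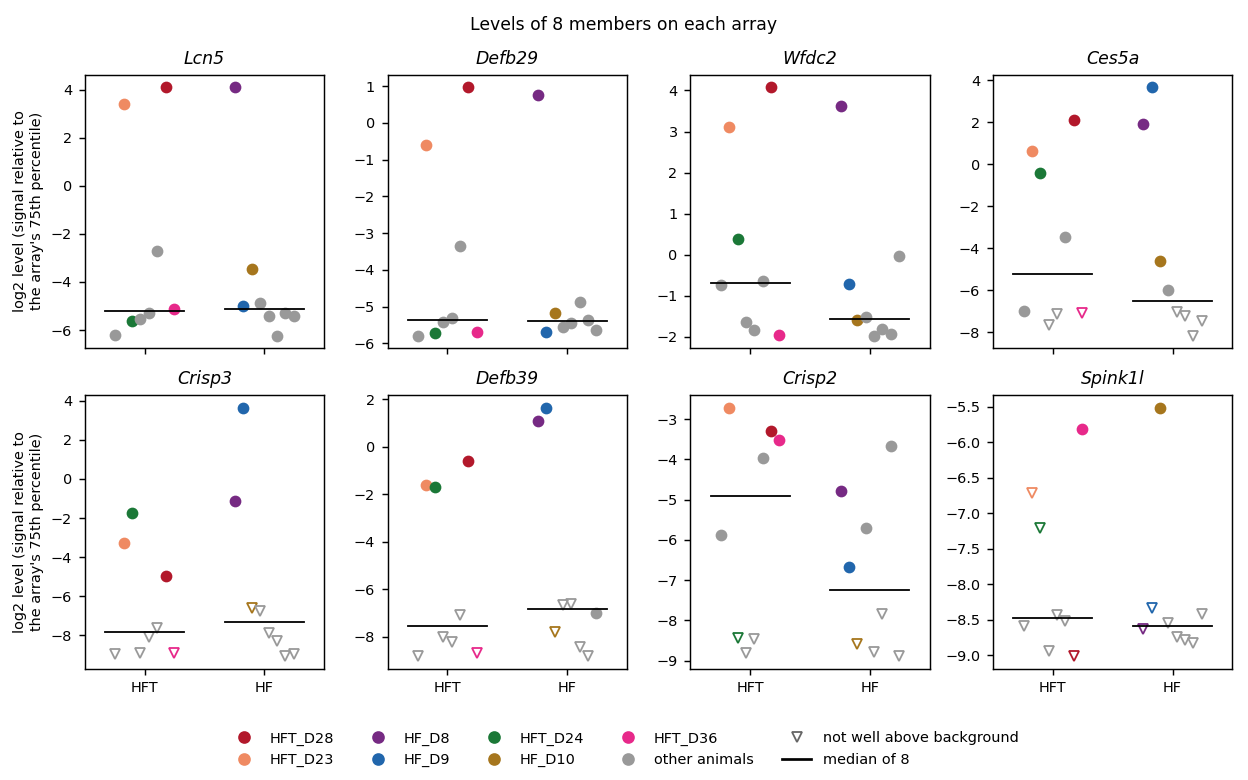
Levels of 8 members on every array, HFT left and HF right in each panel, as log2 signal relative to the array's 75th percentile; the bar is the median of 8 animals and open triangles are probes not well above background. Lcn5, Defb29 and Wfdc2 are bright on HFT_D28, HFT_D23 and HF_D8. Ces5a, Crisp3 and Defb39 peak on HF_D9 and are also high on HFT_D28, HFT_D23, HF_D8 and HFT_D24. Crisp2 is high on HFT_D23 and HFT_D28 and also on HFT_D27, HFT_D36 and HF_D14. Spink1l is well above background on HFT_D36 and HF_D10 only.

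A pair of the genes placed on HFT_D28, HFT_D23 or HF_D8 was high on further animals too. Crisp2 and Spink2 encode proteins of the sperm acrosome that germ cells of the testis make. Crisp2 read -2.71 on HFT_D23, -3.29 on HFT_D28, -3.52 on HFT_D36 and -3.96 on HFT_D27, against -3.68 on HF_D14 and -4.78 on HF_D8. On 7 arrays it was not well above background. Spink2 read -2.49 on HFT_D23, -3.01 on HFT_D28, -3.49 on HFT_D36 and -4.42 on HFT_D27, against -3.58 on HF_D14 and -5.09 on HF_D8. HFT_D36 and HF_D14, where both genes were high, had no high lipocalin or defensin. Of a short list of germ cell genes added after the levels were seen, 5 of 6 were measured and the summed level ran between -5.51 and -1.99 in HFT, against -5.78 and -2.66 in HF. Ldhc, the lactate dehydrogenase of the testis, was high on HFT_D23, HFT_D27, HFT_D28, HFT_D36, HF_D8 and HF_D14, while Pgk2 nowhere stood well above background. Spata18 was high on HFT_D28 and HF_D8 only and read -6.10 on both HFT_D36 and HF_D14. Zpbp and Sycp3 were high on no array. Of 6 genes of sperm and spermatids none was high on any array. The part of germ cells in the levels of Crisp2 and Spink2 was not tested.

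Spink1l, a gene related to the trypsin inhibitor Spink1, was well above background only on HFT_D36 (-5.81) and HF_D10 (-5.51). Of 8 hepatocyte genes, a list added after the levels were seen, 6 were high on HFT_D36, 7 on HF_D10 and 6 on HFT_D23, where Spink1l was not well above background (-6.72). The summed level of that list was 5.12 on HFT_D36 and 6.11 on HF_D10, and it ran between 2.13 and 5.12 in HFT, against 1.72 and 6.11 in HF. Of 6 genes of the exocrine pancreas 0 were high on HFT_D36 or HF_D10. Pnlip, well above background on 1 array, nevertheless had its highest level on HF_D10 (-6.68, with a median of -8.51). The list's summed level ran between 0.07 and 2.71 in HFT, against -0.34 and 1.70 in HF. It mostly followed Cpa1, the brightest of the 6, which read -1.41 to 2.62 over the arrays. The part of either cell type in the level of Spink1l was not tested.

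The remaining measured members were high on no array, although some of them varied. Of the 26 members well above background on all 16 arrays 17 were never high, and their range over the arrays was 0.55 to 3.68 log2 units with a median of 1.11. This set held 9 defensins, Defb20, Defb22, Defb24, Defb25, Defb36, Defb42, Defb43, Defb51 and Defb52, with ranges of 0.61 to 1.77. Adam7, which encodes a sperm surface protein secreted by the epididymis, ran between -3.62 and -2.35 in HFT, against -3.18 and -2.04 in HF. Its lowest values were on HFT_D23 (-3.62) and HF_D8 (-3.18), arrays on which the lipocalins were bright. Crispld2, a secreted protein of stromal cells, Wfdc1, Spink5 and Spink7 varied by 1.45, 1.23, 2.39 and 0.55 log2 units. The 2 probes of Spink7 did not match. The probe used here was well above background on all 16 arrays, the other on 0, with a highest level of -7.83. That Spink7 was measured therefore rests on 1 probe. Wfdc21 and Wfdc18 had the widest ranges, 3.68 and 3.38, with peaks of 5.25 and -1.54 on HF_D13. Defb50 and Spink1 were well above background on 2 and 1 arrays and high on none.

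The 20 members not well above background anywhere were 15 defensins (Defb4, Defb5, Defb13, Defb15, Defb16-ps, Defb17, Defb18, Defb21, Defb26, Defb30, Defb33, Defb40, Defb41, Defb44 and Defb49) with Crispld1, Lcn1, Lcn9, Spink13 and Wfdc5. For these the arrays give no level, only that the probe's signal did not stand out from its surroundings.

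Many of these genes lie in clusters, and some of the clusters were mixed. Genes with at most 5 other protein-coding genes between them in the order of the RefSeq table were joined. The 94 genes fell into 21 clusters by this rule, of which Spink2, Spink4, Spink8, Ces5a, Lcn2, Lcn12 and Crispld1 each made 1 alone. Lcn8, Lcn5, Lcn6 and Lcn10 lie next to each other and were all placed on HFT_D28, HFT_D23 or HF_D8. Of 9 pairs of directly adjacent genes that were both placed, 6 fell on the same side and 3 on different sides. The pairs that differed were Defb11 and Defb9, Defb105b and Defb39, and Wfdc10a and Wfdc11. Some pairs share a gene, as in the run of lipocalins, and no share for random placing was worked out. The count of pairs therefore tests nothing. Within the cluster that holds Defb20 and Defb29, Defb23 peaked on HF_D9, Defb27 and Defb29 on HF_D8 or HFT_D28, and Defb20, Defb22, Defb24, Defb25 and Defb36 were high on no array.

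**Figure D4:**
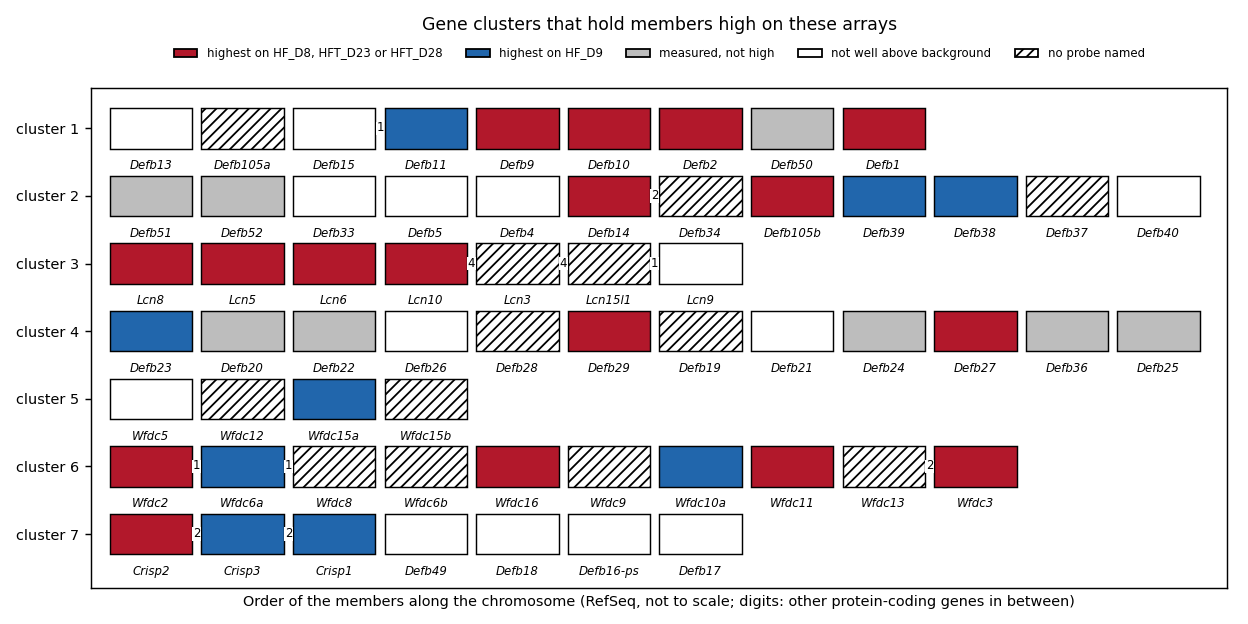
Order of the members along the chromosome in 7 clusters of the RefSeq table, not to scale, with digits for other protein-coding genes in between. Red boxes peaked on HFT_D28, HFT_D23 or HF_D8, blue boxes on HF_D9, grey boxes were measured but not high, white boxes were not well above background, and hatched boxes had no named probe. The run of red lipocalins in cluster 3 contrasts with the mixed colours of the Wfdc genes in cluster 6.

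Markers of the duct and of neighbouring tissue gave the following levels on the same arrays. Of 12 genes of duct epithelium 10 were high on HFT_D28, 9 on HFT_D23, 9 on HFT_D24 and 5 on HFT_D22, against 9 on HF_D8, 7 on HF_D9 and 8 on HF_D35. Their summed level ran between -0.03 and 5.38 in HFT, against -0.26 and 5.24 in HF. Pax8, a transcription factor of the duct, read 0.27 on HFT_D28 and -0.81 on HFT_D23, against 0.12 on HF_D8 and -3.09 on HF_D9. Not all of the list did so. Pax2 ran between -7.29 and -5.34 over the 16 arrays and Grhl2 between -5.32 and -4.26. Both were well above background on every array and high on none.

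Of 10 genes known from the initial segment and caput of rodents, the stretches nearest the testis, 8 were measured. Among them Cst8, Cst11, Cst12 and Rnase9 nowhere stood well above background. Gpx5, a glutathione peroxidase of the caput, was well above background on HFT_D28 (-4.52) and HFT_D23 (-6.44) only. Teddm1 was high on HFT_D28 (-4.03), HFT_D23 (-5.40) and HF_D8 (-4.75), Rnase10 on HFT_D28 (-4.88), and Ros1 on HF_D9 alone (-5.90). The list's summed level ran between -5.49 and -2.73 in HFT, against -5.44 and -3.97 in HF. Of 5 genes of the distal duct and vas deferens 4 were measured, with a summed level of -3.77 to 3.06 in HFT, against -3.76 to 6.07 in HF. Aqp2, a water channel, was high at 3.01 on HFT_D24 and 0.22 on HFT_D23, against 6.03 on HF_D9 and -1.09 on HF_D8, and read -4.22 on HFT_D28. The highest sums of the list, 3.06 on HFT_D24 and 6.07 on HF_D9, were thus almost wholly Aqp2. The chloride channel gene Cftr read 0.02 on HFT_D28 and -0.81 on HFT_D23, against -0.78 on HF_D8, and -7.25 on HF_D9. Akr1b7, an aldo-keto reductase of the vas deferens in mice, read -3.23 on HFT_D24, against -1.64 on HF_D10, -5.13 on HF_D9 and -5.42 on HF_D8, while Aqp9 was high on HFT_D28, HFT_D23, HF_D8 and HF_D9. Which stretch of the duct, if any, each animal's RNA held was not tested.

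HF_D9 also stood apart for smooth muscle. All 7 smooth muscle genes were high there, with Actg2 at 7.89 and Tagln at 5.56, while 0 were high on HFT_D28, HFT_D23 or HF_D8. The summed level of that list ran between 3.61 and 6.06 in HFT, against 3.67 and 8.89 in HF. It was 6.06 on HFT_D24 and 6.24 on HF_D35, and Des, Cnn1 and Actg2 were high on both of these arrays. Of 4 basal cell markers 3, Krt5, Krt14 and Krt15, were high on HFT_D22, HFT_D24, HF_D9 and HF_D35. The summed level ran between 2.18 and 3.16 in HFT, against 2.28 and 3.51 in HF. Tp63, the brightest of the 4, read 2.16 to 2.74 over the 16 arrays and was high on none. Krt5 ran between -5.99 and 0.30, Krt14 between -5.49 and 0.95 and Krt15 between -6.63 and 1.48, a range that the sum hides. On HFT_D22, HFT_D24 and HF_D35 all 4 measured uroplakin genes, of 5 listed, were high as well, with a summed level of -0.45 to 6.21 in HFT, against -1.06 to 6.09 in HF. HFT_D22 and HF_D35 had no high member of the secreted families, and HF_D9 and the arrays bright for Lcn5 had 0 high uroplakin genes.

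Clear cell markers were not high on any array, and 3 of 5 were not well above background anywhere, with a summed level of -4.58 to -3.72 in HFT, against -4.71 to -4.25 in HF. For sperm and spermatids the same held of 4 of 6 genes, with -4.12 to -3.57 in HFT, against -3.98 to -3.45 in HF. Of 4 measured genes of seminal vesicle and prostate, 5 being listed, 3 nowhere stood well above background. Svs4 read -2.19 on HF_D9 and was also high on HFT_D24, HFT_D25, HFT_D26 and HF_D14, and the summed level ran between -6.91 and -3.41 in HFT, against -6.72 and -2.15 in HF. Of 6 adipocyte markers 5 were measured, all well above background on every array, and none was high. Their summed level ran between 7.43 and 8.28 in HFT, against 7.45 and 8.18 in HF. The lowest sums were 7.43 on HFT_D28, against 7.45 on HF_D8 and 7.53 on HF_D9, all arrays bright for the members, and HFT_D23 gave 7.76. The part of these cell types in the members' levels was not tested, and in RNA of whole tissue more cells of a type cannot be told apart from more RNA per cell.

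The labelled comparison, HFT against HF, asks what the extract given to the dams changes in the fat pad of their sons. It found no member that differed beyond the spread between animals. Of 31 members kept in the fit limma called 0 at an adjusted p under 0.05, beside 0.0% of all 21808 probes, and the smallest adjusted p of a member was 0.999994. At an unadjusted p under 0.05 there were 2 members, 6.45% of those kept, beside 515 probes, 2.36% of all kept. The median difference of the kept members was 0.0029 log2 units, 16 of them above 0 and 15 below, beside -0.016 for all kept probes. Being kept needed a probe well above background on at least 4 arrays of 8 in a group, so genes bright in fewer animals, such as Crisp3, Defb1 and Lcn6, were not in this fit. With no filter on dim probes, where they were tested too, limma again called 0 members (smallest adjusted p 0.999922).

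The members at an unadjusted p under 0.05 were both defensins that were high on no array. Defb43 had lowest, median and highest levels of -5.19, -4.81 and -4.34 in HFT, against -6.00, -5.39 and -4.23 in HF. It averaged -4.78 ± 0.28 in HFT and -5.32 ± 0.67 in HF (SD, n = 8 each), a difference of 0.53 (SE 0.24, 95% interval 0.017 to 1.05; limma adjusted p = 0.999994). Within the slides it differed by -0.05, -0.10, 1.22 and 1.06, so the direction was not shared. Defb22, which encodes a sperm-coating defensin, ran from -5.09 to -4.55 with a median of -5.00 in HFT, against -4.83 to -4.48 with a median of -4.75 in HF. Its difference was -0.20 (SE 0.092; limma adjusted p = 0.999994), and it was below 0 within each of the 4 slides, at -0.37 to -0.07.

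For the genes of the bright animals the interval was wide. Lcn5 averaged -2.87 ± 4.23 in HFT and -3.94 ± 3.35 in HF (SD, n = 8 each), a difference of 1.07 with a 95% interval of -2.71 to 4.85. Ces5a averaged -3.76 ± 4.02 in HFT and -4.37 ± 4.57 in HF, a difference of 0.61 with an interval of -3.65 to 4.87. Wfdc2 differed by 0.84 (-1.24 to 2.93), Defb29 by 0.76 (-1.65 to 3.16) and Crisp2 by 1.23 (-1.06 to 3.52). Wfdc10a differed by -0.37 (-1.82 to 1.08) and Spink8 by -0.07 (-1.83 to 1.69). The median standard error was 0.39 for the kept members and 0.13 for all kept probes. Within the slides Lcn5 differed by -0.97, -1.41, 5.24 and 1.43, and Ces5a by -5.98, 1.27, 4.60 and 2.56, so the slides did not share a sign. The first slide held HFT_D23 beside HF_D8 and HF_D9, and the third held HFT_D28. Every slide carried HF at positions 1 and 2 and HFT at positions 3 and 4, and position and group cannot be told apart. Without HFT_D28, HFT_D23 and HF_D8 the difference of Lcn5 was 0.0069 and that of Ces5a -0.20. The difference of Ces5a was 1.76 without HF_D9 and 1.30 without all 4 arrays.

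**Figure D5:**
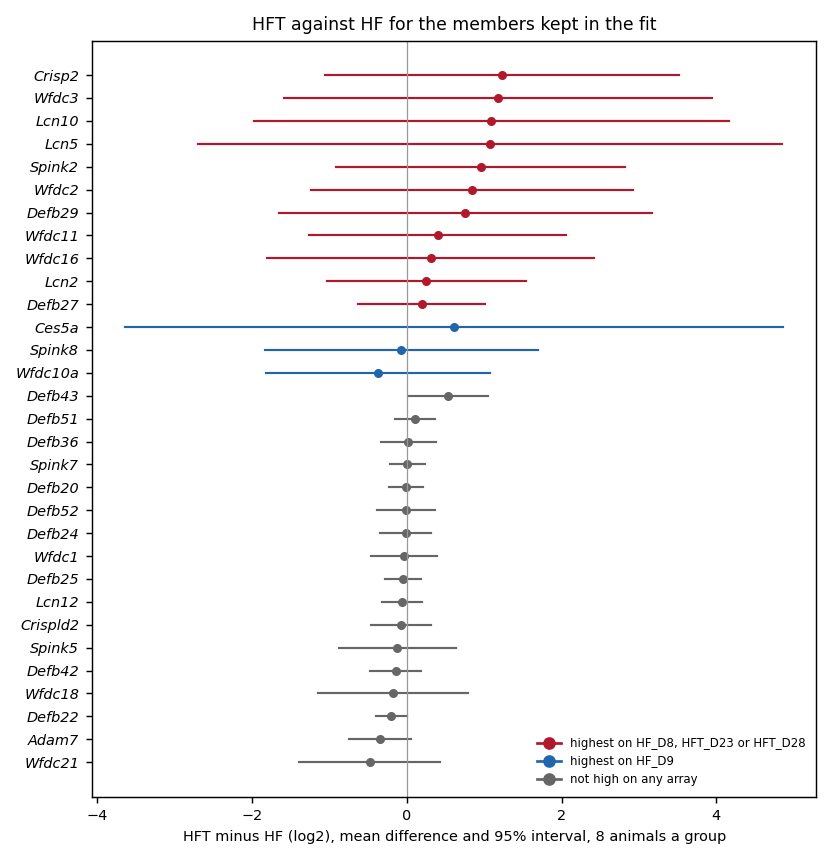
HFT minus HF difference in log2 units with its 95% interval from limma for the 31 members kept in the fit, 8 animals a group, coloured by the arrays on which the gene peaked. Lcn5 at 1.07 and Ces5a at 0.61 have intervals over 7 units wide, and the genes high on no array, in grey, lie between -0.48 and 0.53.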

How the data were processed

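The deposited intensities are output of Agilent Feature Extraction 10.7.3.1, not normalized between arrays, per the file headers, as are its marks for spots well above background. A table of log2 values deposited by the authors carries no statement of its normalization in the sources used here. Its column medians were 7.33 to 7.36, and it served only as an alternative. Here log2 of the processed intensity minus the array's 75th percentile was taken, outlier spots were left out and replicate spots averaged. Names came from RefSeq accessions matched without version (GRCr8), 18005 of 30367 probes. The brightest probe on average stood for a gene. Fits (no covariate) used limma 3.58.1 under R 4.3.3, with Benjamini-Hochberg adjustment over 21808 probes, checked on simulated data. The simulated noise was independent between probes and its SD was capped. That check therefore does not cover genes bright together in a few animals, such as Lcn5 and Ces5a. Tables were made in Python 3.11.15 with pandas 2.3.3. Alternatives covered background correction, normalization, the filter, the slide and arrays left out. All members measured on any array were named, with values for up to 4 a family and side, those with the widest gap between their highest array and their median. The members and the lists were chosen with earlier results of these data known, and the hepatocyte, pancreas and germ cell lists after these levels were seen. A further marker list and a further promoter motif, beyond those given, are not reported here.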

Additional observations from a re-analysis of the deposited data

Results flagged for a closer look

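In 13 of 62 groups of 8 animals that were looked at, the highest animal stood far from the rest, its gap to the nearest divided by the group's range (the value given below) passing Dixon's 95% critical value. Chance alone gives about 5% of groups, but that rate does not hold here, because the 31 genes looked at had been selected for being high on an array. All 13 were in HF; HFT held HFT_D28 and HFT_D23 together, so for genes bright on both the gap to the nearest animal can be small for that reason alone. HF_D8 was the far animal for Lcn10 (0.887), Defb29 (0.873), Defb1 (0.827), Defb27 (0.77), Lcn6 (0.758), Lcn2 (0.735), Lcn5 (0.734), Defb14 (0.73), Wfdc2 (0.652) and Wfdc16 (0.564). HF_D9 was the far animal for Crisp1 (0.828) and Defb11 (0.657), and HF_D10 for Spink1l (0.853).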

How the results depend on the processing

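No member was called in HFT against HF under any of 10 alternatives. Over all probes the count of 0 became 1 without HFT_D28, HFT_D23 and HF_D8, and 1 again when HF_D9 was left out as well. Both times the probe was that of Acot5, no member, with differences of -4.38 and -4.39 and limma adjusted p = 0.0131 and 0.0495; over the alternatives the smallest adjusted p ran from 0.0131 to 0.999941. At an unadjusted p under 0.05 the count of probes ran from 426 to 955. The count of members placed on HFT_D28, HFT_D23 or HF_D8 was 19, and fell to 7 with normexp background correction and 12 with the authors' deposited table; for HF_D9 it was 11, and then 6 and 7. All the genes placed under these settings were among those placed in the main setting. The normexp setting used raw median signals with an offset of 50 in place of the processed signals; the cause was not tested for it or for the deposited table. Under the other alternatives the counts stayed at 18 or 19 and at 10 or 11. Of 88 differences recomputed for 9 members 83 kept their sign; Ces5a and Crisp2 drop out where a probe had to be well above background on all 16 arrays. Ces5a turned to -0.196 without HFT_D28, HFT_D23 and HF_D8. Wfdc10a turned to 0.184 without HF_D9 and to 0.169 without all 4 arrays, and Spink8 to 0.465 and 0.191. No paired analysis was possible because the groups compared share no replicate numbers; the slide was used as a block instead, with 0 calls. Signal over background limits the genes read on few arrays: a level not well above background has no size.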

Other observations

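The animals bright for the secreted families were not alike. HFT_D23 read lower than HF_D8 for 15 of the 19 genes placed on HFT_D28, HFT_D23 or HF_D8, by a median difference of -0.70 log2 units, whereas HFT_D28 read higher than HF_D8 for 12 of them, with a median difference of 0.42. Crisp2 and Spink2 ran the other way on HFT_D23, at 2.06 and 2.60 log2 units above HF_D8. Placing each gene by its highest array fixes part of these directions. Defb2, Defb9, Defb10 and Lcn8 also entered with levels not well above background on some of these arrays. The counts and medians therefore describe the arrays and test nothing. HFT_D27, with 4 high members, shared part of the set at lower levels: Lcn5 read -2.71, Defb29 -3.35, Ces5a -3.46 and Crisp2 -3.96 there, while Wfdc2 read -0.64 and Lcn2 0.77, under 2 log2 units from their medians.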
